A study of Mus musculus with 9 samples.

Results

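Fat of the groin, the subcutaneous inguinal white adipose tissue (iWAT), was compared with fat from beside the epididymis, the visceral epididymal white adipose tissue (eWAT). The comparison took 6 of the 9 libraries of the series, 3 from each of these depots, as their labels name them. The 3 libraries of brown adipose tissue (BAT) entered the expression filter and the estimate of spread, and a few of their means are given for scale. Of the 22527 gene symbols in the table, 10374 reached 1 FPKM (fragments per kilobase, normalized by the authors for the size of each library) in at least 3 of the 9 libraries and were tested. A symbol that occurs repeatedly entered once, by its line of largest mean.

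All groups came from C57BL/6 mice of 8 weeks whose genotype the labels give as wild type, with no treatment named. Ribosomes were pulled down from homogenised fat with an antibody against GFP, and the RNA bound to them was depleted of ribosomal RNA and sequenced, a method known as translating ribosome affinity purification (TRAP). The name of the deposited table refers to adiponectin, the hormone of adipocytes, but the labels do not say which cells carried a GFP tag. They also do not say whether the 3 libraries of a group came from separate animals, so p-values measure the spread between these libraries, which may be technical.

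White fat stores triglyceride in large lipid droplets and releases fatty acids and hormones such as leptin and adiponectin. Subcutaneous and visceral depots arise from different embryonic tissue and keep different sets of developmental transcription factors, among them Hox genes, whose order in a cluster follows the axis of the body. In mice the inguinal depot can acquire heat-producing beige adipocytes, while the epididymal depot does so less readily.

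Fabp4, the fatty acid binding protein of adipocytes, was the most abundant transcript in each library, at 43756, 29618 and 35387 FPKM in iWAT 1, 2 and 3 against 52538, 47271 and 36306 in eWAT 1, 2 and 3. Adipoq, which encodes adiponectin, was between 456 and 2932 FPKM in the 6 libraries. Markers of leucocytes were low: the myeloid list summed to at most 28.9 FPKM in a library, with Retnla at up to 13.8, and the list of T, NK and B cell markers to at most 8.74. Of 26 markers of epididymis, testis and male ducts none passed the expression filter, and 13, among them Crisp1, Gpx5 and Prm2, were listed at 0 in all 6 libraries. Skeletal muscle markers were present, with a summed level of 1902 to 2588 FPKM in iWAT and 245 to 1373 in eWAT, and so were keratins of basal epithelium. The keratin Krt5 was at 68.3, 188 and 127 FPKM in iWAT against 29.3, 87.3 and 79.7 in eWAT. Markers of fibroblasts and preadipocytes summed to 1468 to 3045 FPKM in iWAT and 2389 to 4019 in eWAT. Those of nerve and Schwann cells summed to 199 to 458 FPKM in iWAT and 117 to 270 in eWAT. In tissue samples such as these, fewer cells of a type and less RNA per cell cannot be told apart.

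The library iWAT 1 stood apart from its group. Across the tested genes its log2(FPKM + 1) values correlated at 0.899 and 0.934 with iWAT 2 and 3, but at 0.945, 0.963 and 0.962 with eWAT 1, 2 and 3. The iWAT 2 and iWAT 3 libraries correlated at 0.955 with each other. In 6446 genes iWAT 2 and 3 did not overlap with eWAT, and in 62.7% of these iWAT 1 lay between the mean of iWAT 2 and 3 and the mean of eWAT. Its median position was 0.85, where 0 is the mean of iWAT 2 and 3 and 1 the mean of eWAT. These genes were selected by iWAT 2 and 3, which by itself favours a place nearer eWAT for iWAT 1. No share for comparison was computed. Results are therefore also given without iWAT 1. Read totals were estimated from the steps between low values, at 2.91 to 4.65 M reads (M, mega) for iWAT, 4.45 and 4.62 M for eWAT 2 and 3, and 16.2 M for eWAT 1, so results are also given without that deeper library.

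More transcripts were called higher in eWAT than in iWAT. The largest differences were toward iWAT, in major urinary protein genes and a near-identical copy. Among the other called genes described here the largest log2 difference was toward eWAT, in Agt (-4.05). Toward iWAT it was in Cidea (2.96). With limma at an adjusted p under 0.05, 24 genes (0.231% of those tested) were higher in iWAT and 156 (1.5%) were higher in eWAT, 180 (1.74%) in all. At an unadjusted p under 0.05 there were 2710. The median log2 difference of all tested genes, iWAT minus eWAT, was -0.18. The tests and the counts of members above or below 0 were not centred on this median, so differences are to be read beside it. After median-ratio scaling this median was -0.002, with 32 genes higher in iWAT and 81 higher in eWAT, and after quantile normalization the counts were 42 and 99. Every iWAT library lay above every eWAT library in 322 genes (3.1%), and every eWAT library lay above every iWAT library in 2028 genes (19.5%).

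The calls depended on iWAT 1. Without it 459 genes (4.42%) were called higher in iWAT and 2862 (27.6%) higher in eWAT, with all 24 and all 156 calls kept. Since iWAT 1 was chosen for leaving out by its likeness to eWAT, this rise in calls is no independent support. Without eWAT 1 the counts were 18 (0.174%) and 49 (0.472%). Of the 24 and 156 calls, 12 in each direction held in all of the 22 alternative settings that tested them. Those that held among the genes described here were Mup8, Mup9, Mup10, Mup12, Mup13, Mup16, Mup17, Mup19, Cox8b and Ly6a in iWAT and Atp6v0e2, Bok, Ogn, Hoxb5 and Slpi in eWAT. Ogn, Hoxb5 and Slpi, like C6 and Ccl6 described below, passed the expression filter through eWAT alone, and Hoxa10 through iWAT alone. Hoxb6, Lbp, Thbd and Slc6a13, also described below, would not have passed it without eWAT. A large difference was thus in part a condition for testing them. Counts of calls that include them are not read as a result.

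Transcripts of the major urinary proteins showed the largest differences between the depots, all of them higher in iWAT. These small lipocalins carry pheromones and other lipophilic molecules, are known mainly as products of the liver, and are encoded by a cluster of near-identical genes on chromosome 4. Of 20 Mup symbols listed, 9 passed the expression filter, and these 9 were called higher in iWAT, as were 0.231% of all tested genes. Nothing is read from that count, since the genes passed the filter through iWAT and BAT, never through eWAT alone, and Mup5 passed through iWAT alone. Another 4 were listed at 0 in all 6 libraries, and the other 7 reached at most 4.94 FPKM in a white fat library. The promoters of Mup19 and Mup17, both from the group with the largest differences, are shown because these genes moved together. They are RefSeq sequences of the 250 bases before the start, on the minus strand of GRCm38.p6, at chr4:61782225-61782474 for Mup19 and chr4:61595833-61596082 for Mup17.
Mup19: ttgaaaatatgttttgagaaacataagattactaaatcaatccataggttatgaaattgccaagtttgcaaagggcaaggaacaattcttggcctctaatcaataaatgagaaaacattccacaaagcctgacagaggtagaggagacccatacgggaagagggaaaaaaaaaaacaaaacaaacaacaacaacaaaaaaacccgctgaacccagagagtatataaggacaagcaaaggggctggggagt
Mup17: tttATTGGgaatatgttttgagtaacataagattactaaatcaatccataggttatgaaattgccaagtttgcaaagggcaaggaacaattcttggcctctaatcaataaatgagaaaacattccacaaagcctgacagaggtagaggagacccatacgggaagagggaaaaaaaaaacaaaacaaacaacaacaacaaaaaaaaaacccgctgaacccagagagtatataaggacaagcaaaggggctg
The windows shared an unbroken run of 155 bases. Capitals mark a match to CCAAT, which lies on the opposite strand at position -247 from the start of Mup17. Both strands were searched for 4 motifs, given here with the share of 32851 RefSeq promoters of the same length that hold them. The TATA box was searched as TATAAA (12.4%) and the CCAAT box by its name (33.8%). The GC box was searched as GGGCGG (32.7%) and the E-box as CACGTG (6.02%), and no match overlapped another. The Mup19 window held no match.

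Mup19 (chromosome 4, 61439358 to 61443322 on build mm9, protein-coding) was at 309, 102 and 204 FPKM in iWAT 1, 2 and 3 against 0.532, 0.269 and 0.97 in eWAT 1, 2 and 3. The depots did not overlap, and the log2 difference was 6.90 (limma, SE 0.55, adjusted p = 0.000444). Mup17 was at 135, 42.6 and 86.0 FPKM in iWAT against 0.0246, 0.297 and 0.914 in eWAT, a log2 difference of 5.88 (limma, SE 0.53, adjusted p = 0.000449). Mup13, Mup12, Mup16, Mup8 and Mup9 differed by 6.57, 6.56, 6.28, 6.16 and 5.65 on the log2 scale. Mup10 was listed at 57.9, 13.0 and 13.5 FPKM in iWAT and at 0 in all 3 eWAT libraries, so no fold is given. A further near-identical gene, LOC100048884, described after its values were seen, was at 304, 83.4 and 156 FPKM in iWAT against 0.218, 0.753 and 1.10 in eWAT. Because reads from near-identical copies can be divided among them in more than 1 way, the levels of single members are uncertain. The sum over the 20 symbols was 1383, 459 and 944 FPKM in iWAT and 2.72, 6.09 and 4.78 FPKM in eWAT.

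All 9 tested Mup genes had the same order within iWAT, highest in iWAT 1, then iWAT 3, then iWAT 2. The library that resembled eWAT across genes was thus the one with the highest Mup levels. Without iWAT 1 all 9 were still called, and Mup19 differed at a limma adjusted p of 0.000827. BAT was low, with a mean of 7.36 FPKM for Mup19. Mup5, described here after its values were seen, was lower than the others, at 5.48, 2.09 and 5.02 FPKM in iWAT against 0.00381, 0.476 and 0 in eWAT.

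**Figure D1:**
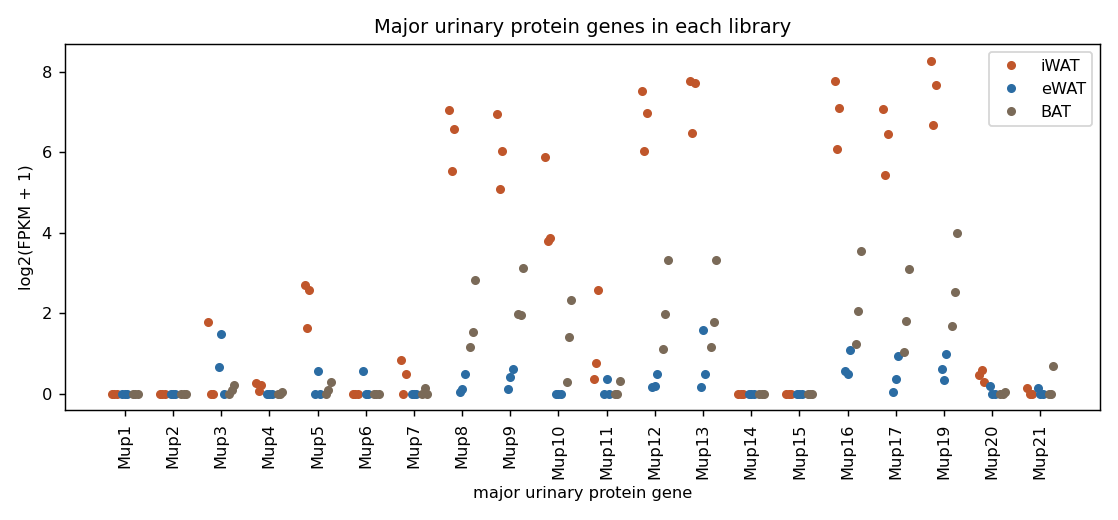
Log2(FPKM + 1) of the 20 major urinary protein genes, 1 point per library, with iWAT orange, eWAT blue and BAT brown. For the 9 tested genes every iWAT point lies above every eWAT point, for Mup19 at 102 FPKM or more against 0.97 or less.

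Cidea, Cox8b and Kcnk3 of the thermogenic programme were higher in iWAT, and Ucp1 was not called. Of 33 genes known for brown and beige fat 26 were tested, 3 were called higher in iWAT (0.231% of all genes were) and 0 higher in eWAT. Their median log2 difference was 0.33 against -0.18 over all genes, with 22 members above 0 and 4 below. Cox8b, the heart and brown fat form of a cytochrome c oxidase subunit, was at 367, 319 and 180 FPKM in iWAT against 43.2, 45.1 and 39.8 in eWAT. All iWAT libraries were far above all eWAT libraries, and the log2 difference was 2.67 (limma, SE 0.27, adjusted p = 0.00125). Cidea, a lipid droplet protein typical of brown fat, was at 103, 95.1 and 17.2 FPKM in iWAT against 10.5, 5.76 and 4.01 in eWAT. The depots did not overlap, although iWAT 3 was well under the other iWAT libraries, and the log2 difference was 2.96 (limma, SE 0.58, adjusted p = 0.0358).

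Kcnk3, a potassium channel of brown adipocytes, was at 8.99, 6.22 and 5.32 FPKM in iWAT against 1.14, 1.93 and 1.91 in eWAT, a log2 difference of 1.55 (limma, SE 0.24, adjusted p = 0.0140). Ucp1, the uncoupling protein that makes heat, was at 2.24, 3.35 and 3.10 FPKM in iWAT against 3.38, 0.630 and 2.50 in eWAT. Its depots overlapped, and the log2 difference was 0.40 (limma, SE 0.34, adjusted p = 0.413). The BAT means were 2704 FPKM for Ucp1, 4407 for Cidea and 13284 for Cox8b, so the white depots were low on the same scale. The Cidea call was lost without iWAT 2 (limma adjusted p = 0.133), without eWAT 1 (0.0639), without eWAT 2 (0.0945), without eWAT 3 (0.146) and without any 1 of the BAT libraries (0.0674 to 0.0714). The Kcnk3 call was lost without eWAT 3 (limma adjusted p = 0.0527). With the replicate block on iWAT and eWAT alone it was also lost (limma adjusted p = 0.0545). Fitting iWAT and eWAT alone without the block, under either filter, ended both the Cidea and the Kcnk3 call. Their limma adjusted p values were then up to 0.159 and 0.113. Without iWAT 1, 5 members were called higher in iWAT (4.42% of all genes were) and 1 higher in eWAT (27.6% of all genes were). The list median was 0.50 without iWAT 1 and 0.19 without eWAT 1.

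**Figure D2:**
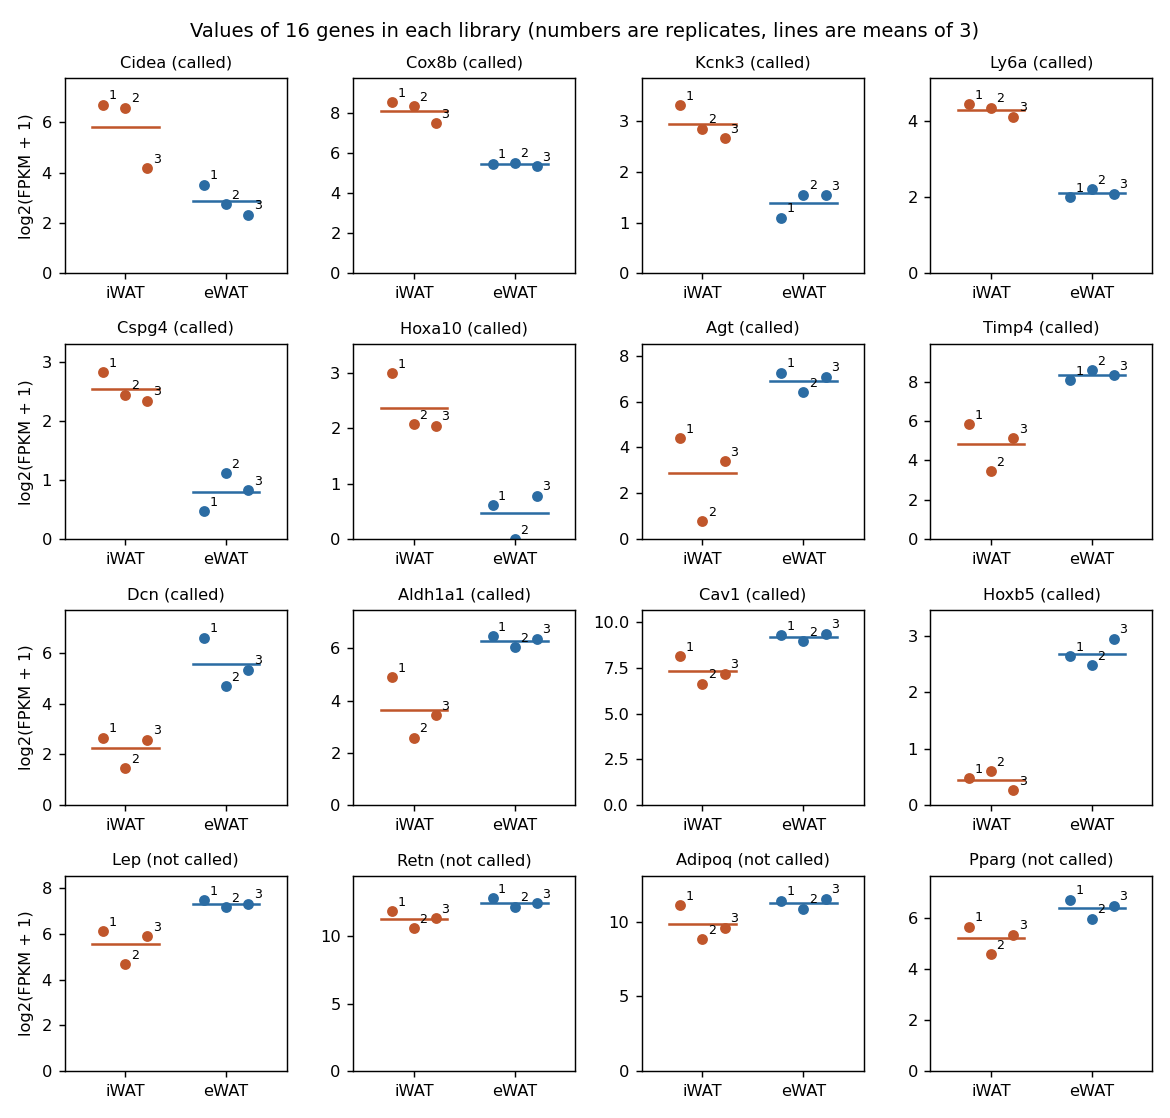
Log2(FPKM + 1) of 16 genes in each of the 6 white fat libraries, with points numbered by replicate and lines at the mean of 3. Cox8b and Ly6a lie higher in every iWAT library, and Agt and Timp4 lie higher in every eWAT library.

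Ly6a, Cspg4, Rpl30 and Eno1 were also called higher in iWAT. Ly6a, which encodes the progenitor surface antigen Sca-1, was at 20.8, 19.3 and 16.2 FPKM in iWAT against 3.01, 3.61 and 3.25 in eWAT. Libraries of each depot lay close together, and the log2 difference was 2.20 (limma, SE 0.25, adjusted p = 0.00256). It was the 1 call (0.231% of all genes were called this way) among 6 tested markers of fibroblasts and preadipocytes, 3 of which were above 0 and 3 below. Cspg4, the NG2 proteoglycan of pericytes, was at 6.11, 4.45 and 4.09 FPKM in iWAT against 0.391, 1.17 and 0.772 in eWAT, a log2 difference of 1.73 (limma, SE 0.23, adjusted p = 0.00665). Mylk, the myosin light chain kinase on the same list of smooth muscle and pericyte markers, went the other way, by -2.12 on the log2 scale. The ribosomal protein gene Rpl30, which has processed pseudogenes, was at 910, 291 and 1050 FPKM in iWAT against 135, 95.3 and 94.6 in eWAT.

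The glycolytic enzyme gene Eno1 was called higher in iWAT by 2.41 on the log2 scale (limma, SE 0.48, adjusted p = 0.0358), at 44.8, 154 and 96.3 FPKM against 11.1, 31.2 and 10.8 FPKM. It has a near-identical copy, Gm5506, and the sum of both was 196, 216 and 136 FPKM in iWAT and 93.8, 118 and 101 FPKM in eWAT. How reads were divided between the copies was not tested. No other of the 21 tested genes of glucose uptake and glycolysis was called, and their median difference was 0.04, or -0.12 without eWAT 1. The Eno1 call was lost without iWAT 2 (limma adjusted p = 0.126), iWAT 3 (0.132), eWAT 1 (0.129), eWAT 3 (0.155) or any 1 of the BAT libraries, and the Rpl30 call without iWAT 3 (0.0735), eWAT 2 (0.0575) or eWAT 3 (0.0874).

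The largest difference toward eWAT was in Agt, which encodes angiotensinogen, the precursor of the blood pressure hormone angiotensin. Its RefSeq promoter is shown as that of the gene with the largest difference toward eWAT, 250 bases before the start on the minus strand of GRCm38.p6, chr8:124569707-124569956, with capitals for TATAAA at position -30. The promoter of Timp4, the other eWAT gene taken by the same rule, held no match to the motifs searched and is not shown.
Agt: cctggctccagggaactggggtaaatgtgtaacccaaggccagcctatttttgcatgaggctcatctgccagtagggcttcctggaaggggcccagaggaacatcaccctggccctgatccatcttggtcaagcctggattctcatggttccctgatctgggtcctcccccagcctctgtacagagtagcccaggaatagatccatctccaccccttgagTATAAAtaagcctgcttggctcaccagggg
Agt (chromosome 8, 127080434 to 127093606 on mm9) was at 20.2, 0.736 and 9.61 FPKM in iWAT against 153, 84.1 and 134 in eWAT. The iWAT libraries varied widely but none reached an eWAT library, and the log2 difference was -4.05 (limma, SE 0.72, adjusted p = 0.0256). The call was lost without iWAT 3 (limma adjusted p = 0.0717), eWAT 1 (0.0916), eWAT 3 (0.108) or BAT 2 (0.0519).

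Of 43 matrix proteins and matrix enzymes other than collagens 25 were tested, and 4 were called higher in eWAT (1.5% of all genes were) and 0 higher in iWAT. The median of the 25 was -0.27, or -0.47 without iWAT 1. Timp4, an inhibitor of matrix metalloproteinases, was at 56.5, 9.93 and 34.4 FPKM in iWAT against 269, 383 and 322 in eWAT, a log2 difference of -3.52 (limma, SE 0.50, adjusted p = 0.00913). The proteoglycan gene Dcn, decorin, was at 5.34, 1.74 and 5.00 FPKM in iWAT against 97.0, 25.0 and 39.5 in eWAT, a log2 difference of -3.32 (limma, SE 0.48, adjusted p = 0.00952). Both had depots that did not overlap. Ogn, another small proteoglycan, was at 0.740, 0.346 and 0.272 FPKM in iWAT against 8.86, 5.34 and 9.21 in eWAT, a log2 difference of -2.58 (limma, SE 0.23, adjusted p = 0.000449). Adamts5, a protease that cleaves proteoglycans, differed by -2.04, a call lost without eWAT 1 (limma adjusted p = 0.0916), eWAT 3 (0.112) or any 1 of the BAT libraries (0.0528 to 0.0558). None of the 15 tested collagens was called by limma, with a median of -0.75, and Col3a1 differed by -1.64 (limma adjusted p = 0.107). Without iWAT 1, 8 collagens were called higher in eWAT and 1 higher in iWAT, as were 27.6% and 4.42% of all tested genes.

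C6, Lbp and Thbd were also called higher in eWAT. C6, a component of the complement attack complex, was at 0.625, 0.218 and 0.644 FPKM in iWAT against 22.5, 2.69 and 18.4 in eWAT, a log2 difference of -3.00 (limma, SE 0.56, adjusted p = 0.0284). It was the 1 call among 15 tested complement genes, where 1.5% of all genes were called higher in eWAT. Lbp, which binds bacterial lipopolysaccharide, was at 3.68, 0.470 and 2.06 FPKM in iWAT against 14.7, 17.5 and 20.6 in eWAT. Its log2 difference was -2.74 (limma, SE 0.36, adjusted p = 0.00609). Thbd, thrombomodulin, an anticoagulant receptor, differed by -2.77. The C6 call was lost without iWAT 2 (limma adjusted p = 0.118), iWAT 3 (0.0979), eWAT 1 (0.0916), eWAT 3 (0.125) or any 1 of the BAT libraries, and the Thbd call without eWAT 1 (0.0934), eWAT 3 (0.112), BAT 1 (0.0514) or BAT 2 (0.055).

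Among the 12 largest differences toward eWAT were also Bok, Atp6v0e2, Gsta3, Aldh1a1, Slc6a13 and Rnf144b. Bok, a member of the Bcl-2 family of apoptosis regulators, was at 1.68, 1.80 and 1.57 FPKM in iWAT against 14.7, 22.6 and 12.9 in eWAT, a log2 difference of -2.69 (limma, SE 0.24, adjusted p = 0.000449). Atp6v0e2, a subunit of the vacuolar proton pump, was at 8.65, 1.57 and 3.92 FPKM in iWAT against 55.9, 39.0 and 43.5 in eWAT. Both had libraries well apart between depots. Gsta3, a glutathione transferase, was at 39.5, 24.4 and 14.3 FPKM in iWAT against 155, 217 and 188 in eWAT, a log2 difference of -2.89. Aldh1a1, which makes retinoic acid, was the 1 call among 15 tested genes of retinoid handling (1.5% of all genes were called this way), with a log2 difference of -2.65. Slc6a13, a transporter of GABA and taurine, differed by -2.65 and the ubiquitin ligase gene Rnf144b by -2.59. The last 3 calls were each lost without any 1 of iWAT 2, iWAT 3, eWAT 1, eWAT 3, BAT 1 and BAT 2, with limma adjusted p values up to 0.111, 0.146 and 0.127. Leaving out eWAT 2 also ended the Aldh1a1 and Rnf144b calls, and leaving out BAT 3 those of Aldh1a1 and Slc6a13. The Gsta3 call was lost without any 1 of iWAT 2, iWAT 3, eWAT 1, eWAT 2 and eWAT 3 (0.0504 to 0.0878).

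Single Hox genes differed between the depots in both directions. Of 22 tested members of the 4 clusters 1 was called higher in iWAT and 5 higher in eWAT, where 0.231% and 1.5% of all tested genes were. Nothing is read from these counts, since Hoxb5 passed the expression filter through eWAT alone and Hoxa10 through iWAT alone. Hoxb6 would not have passed it without eWAT. Hoxb5 (chromosome 11, 96163909 to 96167434 on mm9) was at 0.391, 0.515 and 0.201 FPKM in iWAT against 5.21, 4.55 and 6.72 in eWAT, a log2 difference of -2.24 (limma, SE 0.20, adjusted p = 0.000449). Hoxa5 was at 2.10, 1.04 and 0.611 FPKM in iWAT against 8.03, 9.63 and 6.14 in eWAT, a log2 difference of -2.02 (limma, SE 0.32, adjusted p = 0.0140). Neither gene overlapped between depots. Hoxa10 was at 6.93, 3.20 and 3.13 FPKM in iWAT and was listed at 0.531, 0 and 0.719 FPKM in eWAT (limma adjusted p = 0.0139), so the more posterior gene of that cluster went the other way.

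All 7 tested genes of the Hox B cluster had a difference below 0, with a median of -1.03, and 2 were called. The called genes, Hoxb5 and Hoxb6, would not have passed the expression filter without eWAT. No trend of the cluster is therefore read from these numbers. Hoxb6 was listed at 1.84, 0.867 and 0 FPKM in iWAT against 5.20, 4.97 and 8.20 in eWAT. In the Hox C cluster Hoxc5 and Hoxc8 were called higher in eWAT, Hoxc8 at 12.5, 8.70 and 9.19 FPKM against 27.5, 23.8 and 33.6 FPKM. Hoxc9 was not called, with a log2 difference of 0.06 (limma, SE 0.26, adjusted p = 0.886). Hoxc10 was higher in each iWAT library, at 20.9, 37.7 and 24.7 FPKM against 2.58, 15.8 and 15.3 FPKM, but was not called (log2 difference 1.49, limma adjusted p = 0.146). The Hoxa5 call was lost without iWAT 2 (limma adjusted p = 0.0506) or iWAT 3 (0.0657). The Hoxa10 call was lost with a pseudocount of 0.1, and with iWAT and eWAT alone under either filter (limma adjusted p up to 0.091). The Hoxb6, Hoxc5 and Hoxc8 calls were each lost without any 1 of iWAT 2, iWAT 3 and the eWAT libraries (0.0603 to 0.146), and also without BAT 1 and BAT 3 for Hoxb6, BAT 1 and BAT 2 for Hoxc8 and each of the BAT libraries for Hoxc5. With the replicate block on iWAT and eWAT alone the Hoxb6 and Hoxc5 calls were lost (limma adjusted p = 0.0582 and 0.0580). Median-ratio scaling ended the Hoxc5 and Hoxc8 calls (limma adjusted p = 0.0884 and 0.0652), and quantile normalization that of Hoxc5 (0.0631).

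**Figure D3:**
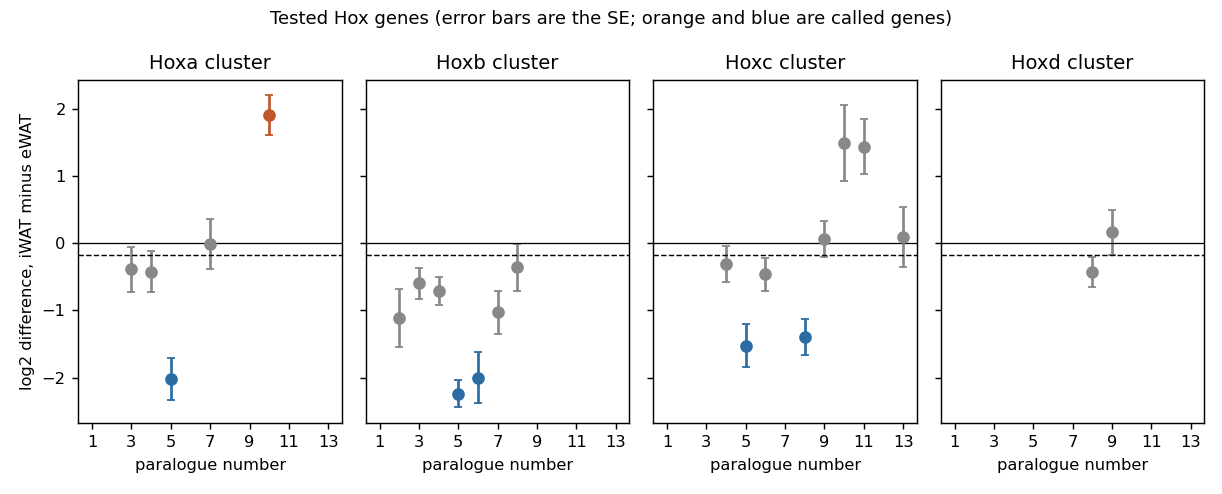
Log2 difference between depots, iWAT minus eWAT, of each tested Hox gene by cluster and paralogue number, with bars for the SE, called genes in colour and a dashed line at the median of all tested genes (-0.18). Hoxb5 (-2.24) and Hoxa5 (-2.02) lie toward eWAT and Hoxa10 (1.90) lies toward iWAT.

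Known depot factors outside the Hox clusters gave no call in the main fit (all 9 libraries, no block, weights or scaling). Of 29 factors on the subcutaneous list 16 were tested with a median of 0.79 and 15 above 0. Of 13 on the visceral list 5 were tested with a median of 0.53, with 3 above 0 and 2 below. Without eWAT 1 these medians fell to 0.40 and 0.25. Without iWAT 1 the subcutaneous list had 2 calls higher in iWAT, and the visceral list had 1 call in each direction, where 4.42% of all genes were called higher in iWAT and 27.6% higher in eWAT. The replicate block over 9 libraries and array weights each gave 1 visceral factor higher in eWAT, and quantile normalization gave 1 subcutaneous factor higher in iWAT. En1, a homeobox factor of the subcutaneous list, was at 15, 35.6 and 24.3 FPKM in iWAT against 3.07, 13.6 and 17.1 in eWAT, with overlapping depots (limma adjusted p = 0.180). Tbx15, a factor of the same list, was too low to be tested, at 2.65, 0.720 and 0.771 FPKM in iWAT against 0.0777, 0.179 and 0.116 in eWAT. Wt1, the mesothelial factor used as a visceral marker, was at most 1.33 FPKM and Tcf21 was listed at 0 in all 6 libraries. These markers of visceral fat were thus not detected or near 0 in eWAT. Krt5 and the skin and mammary list were, like En1, highest in iWAT 2, then iWAT 3, and lowest in eWAT 1: the list summed to 237, 653 and 449 FPKM in iWAT and to 108, 325 and 299 FPKM in eWAT. The part of such cells in the patterning results was not tested.

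Hormones and other secreted products of white adipocytes had differences toward eWAT in most members, with 1 call. Of 20 tested adipokines and secreted products, 17 had a difference below 0, the median was -0.98, and Agt alone was called, where 1.5% of all genes were called higher in eWAT. Lep, which encodes the satiety hormone leptin, was at 68.3, 24.6 and 58.6 FPKM in iWAT against 178, 144 and 158 in eWAT. The depots did not overlap, and the log2 difference was -1.76 (limma, SE 0.39, adjusted p = 0.0510). Retn, resistin, was at 3792, 1552 and 2586 FPKM in iWAT against 7279, 4730 and 5622 in eWAT, a log2 difference of -1.22 (limma, SE 0.39, adjusted p = 0.110). Adipoq was at 2169, 456 and 771 FPKM in iWAT against 2711, 1856 and 2932 in eWAT, where iWAT 1 overlapped eWAT (log2 difference -1.42, limma adjusted p = 0.117). Without iWAT 1, 12 members were called higher in eWAT, Lep at a limma adjusted p of 0.00606, Retn at 0.0167 and Adipoq at 0.00214, against 27.6% of all tested genes.

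Genes of adipocyte identity showed the same dependence on iWAT 1. All 30 were tested, 27 were below 0 with a median of -0.93, and 12 had every eWAT library above every iWAT library, against 19.5% of all genes. Only Cav1, which encodes the caveolar coat protein caveolin-1, was called (1.5% of all genes were called higher in eWAT), at 281, 99.5 and 146 FPKM in iWAT and 637, 500 and 673 FPKM in eWAT (log2 difference -1.90, SE 0.35, limma with adjusted p = 0.0280). The Cav1 call was lost without any 1 of the other libraries, BAT included (limma adjusted p = 0.0558 to 0.126), except iWAT 1. Plin1, the perilipin that coats lipid droplets, was at 302, 89.1 and 105 FPKM in iWAT against 495, 312 and 401 in eWAT, a log2 difference of -1.48 (limma, SE 0.41, adjusted p = 0.0855). Pparg, the master regulator of adipocytes, was at 49.1, 22.9 and 39.4 FPKM in iWAT against 104, 61.2 and 87.2 in eWAT. Without iWAT 1, 24 of the 30 were called higher in eWAT with a median of -1.22, against 27.6% and a median of -0.25 for all tested genes, and without eWAT 1 none was called in either direction. With replicate numbers as a block over 9 libraries, Lep (limma adjusted p = 0.0493) and Pparg (0.0351) were called higher in eWAT and Krt79 (0.0529) was not. On iWAT and eWAT alone the block gave 0.0380, 0.0458 and 0.0584 for these genes.

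Lipid and energy metabolism gave few calls. The 37 complex I genes had a median of -0.47 and the 17 ATP synthase genes a median of -0.60, with none called by limma, and without iWAT 1 23 and 12 of them were called higher in eWAT, as were 27.6% of all tested genes. Cox8b was the 1 call among 28 genes of complexes II to IV, where 0.231% of all genes were called higher in iWAT. Fatty acid oxidation (26 genes), the TCA cycle (22) and the synthesis of fatty acids and triglyceride (24) held no gene called by limma, and their medians were -0.42, -0.25 and -0.29. Without iWAT 1 these were -0.73, -0.45 and -0.71, and that of complex I was -0.75, where the median of all genes was -0.25. Of 24 tested genes of lipolysis and adrenergic signalling, Npr3, the clearance receptor for natriuretic peptides, was the 1 call (1.5% of all genes were called this way), at 21.4, 9.77 and 14.2 FPKM in iWAT and 80.4, 54.6 and 56.9 FPKM in eWAT (log2 difference -2.05, SE 0.33, limma with adjusted p = 0.0147). The Npr3 call was lost without iWAT 3 (limma adjusted p = 0.0666), eWAT 1 (0.0594) or eWAT 3 (0.0593).

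**Figure D4:**
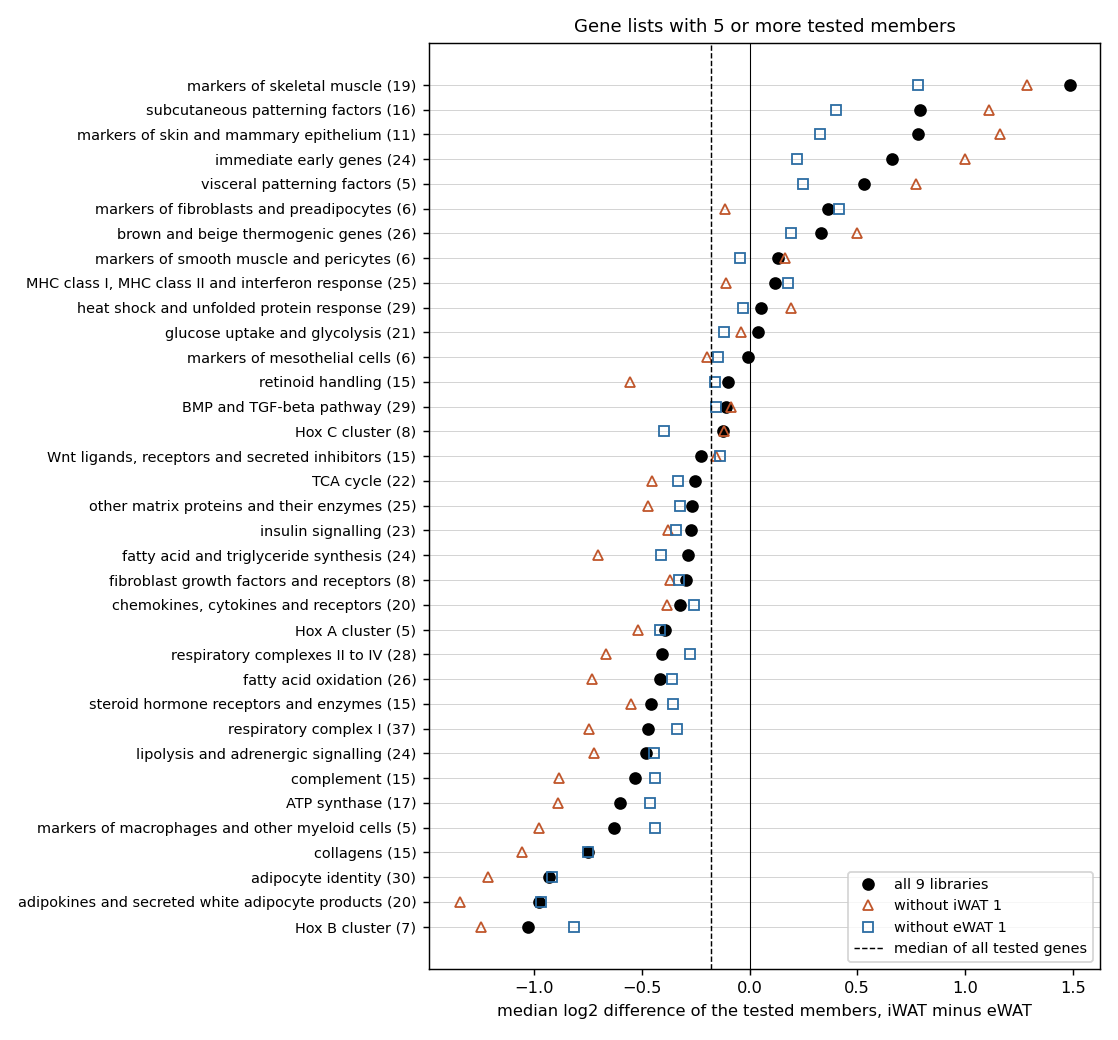
Median log2 difference between depots, iWAT minus eWAT, of each gene list with 5 or more tested members, from all 9 libraries (dots), without iWAT 1 (triangles) and without eWAT 1 (squares), with a dashed line at the median of all tested genes (-0.18). Skeletal muscle markers (1.49) and subcutaneous patterning factors (0.79) lie toward iWAT, and adipokines (-0.98) and Hox B genes (-1.03) lie toward eWAT. The Hox B median includes genes that would not have passed the expression filter without eWAT.

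Markers of cells other than adipocytes moved with the depots in part. Of 25 skeletal muscle markers 19 were tested with a median of 1.49, none was called, and 10 had every iWAT library above every eWAT library, against 3.1% of all genes. Without eWAT 1 the median fell to 0.78. Pvalb, a calcium buffer of fast muscle fibres, was at 556, 959 and 576 FPKM in iWAT against 0.631, 409 and 323 in eWAT, so eWAT 1 was far below the other libraries. The 6 tested mesothelial markers had 3 members above 0, 3 below and a median near 0 (-0.007), with sums of 51.2, 105 and 69.3 FPKM in iWAT against 37.7, 78.3 and 74.6 in eWAT. On that list Igfbp5 (log2 difference -1.91) was called higher in eWAT, a call lost without iWAT 2 (limma adjusted p = 0.0501), iWAT 3 (0.0666) or eWAT 3 (0.0742). Slpi, a protease inhibitor on the same list, was listed at 0 in all 3 iWAT libraries and at 2.03, 2.23 and 3.43 FPKM in eWAT. Retnla, a product of alternatively activated macrophages, was at 3.02, 1.75 and 4.48 FPKM in iWAT against 9.22, 9.74 and 13.8 in eWAT, a call lost without any 1 of the other libraries except iWAT 1 and iWAT 3 (limma adjusted p = 0.0527 to 0.127). Krt79, a keratin, differed by -1.58 (limma adjusted p = 0.0465), a call lost without any 1 of the libraries except iWAT 1 (0.0856 to 0.164), and opposite in sign to the median of 0.78 for the 11 tested skin and mammary markers, which was 0.33 without eWAT 1. The Krt79 call also ended with median-ratio scaling (limma adjusted p = 0.0621) and quantile normalization (0.0507). The part of cells other than adipocytes in the differences above was not tested.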

How the data were processed

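RNA bound to ribosomes was sequenced single-end in 9 libraries, 3 each of iWAT, eWAT and BAT. The deposited table holds FPKM values per gene that the authors made with TopHat and Cufflinks on mm9, per the submitters' processing notes, with versions not given in the sources used here. The unit itself was read from the values. One BAT library is labelled brown in its title and inguinal in its tissue field, and served in the expression filter, the spread and the BAT means. Reads are not in the table, so depth was estimated from steps between low values, of which 43.9% to 63.5% lay within 0.15 of a whole read per library.

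Of 22996 lines, 728 belonged to 259 repeated symbols. Genes of at least 1 FPKM in 3 of 9 libraries (10374) were tested on log2(FPKM + 1), a scale that understates changes of low genes, with limma 3.58.1 in R 4.3.3, fitting 3 group means (6 residual degrees of freedom) with a trended prior and Benjamini-Hochberg adjustment at 0.05. The fit was tested on simulated data with independent noise in each library. These held no outlying library, no shared deviations of same-numbered libraries and no unequal depth. The simulation therefore cannot show how the fit copes with such features here. Deviations of same-numbered iWAT and eWAT libraries correlated at 0.634, 0.534 and 0.165, and those of different numbers at -0.576 to 0.228. The value of 0.228, for iWAT 2 and eWAT 3, exceeded the 0.165 of iWAT 3 and eWAT 3. This check therefore does not settle whether the numbers pair the samples. The main fit is unpaired, and a block on the number is given beside it. BAT gave no such pattern with either depot (same-numbered iWAT and BAT at -0.324, -0.225 and 0.121), so the block was fitted with and without BAT.

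Named genes were the 12 largest differences per direction among called genes without overlap and with a mean of at least 5 FPKM in the higher depot, a core set, and per list of the 41 lists up to 4 called members or else the 2 highest. Genes outside this rule, such as Mup5, Krt5 and Gm5506, were chosen after their values were seen. The members and lists were chosen with earlier results of these data known. Coordinates are mm9 and promoters GRCm38.p6, and 15 of the 24 genes with the largest differences had a promoter entry. Alternatives varied pseudocount, filter, scaling, weights, libraries and block. Figures were drawn with matplotlib 3.10.9.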

Additional observations from a re-analysis of the deposited data

How the results depend on the processing

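The calls were sensitive to the libraries used. The 24 genes higher in iWAT and 156 higher in eWAT became 16 to 459 and 34 to 2862 when 1 library was left out, with the upper ends without iWAT 1, and the cause was not tested. With a pseudocount of 0.1, 71 genes were higher in eWAT, without a filter 69, with a mean of at least 5 FPKM (fewer genes tested) 63, and after median-ratio scaling 81. Quantile normalization gave 42 and 99, iWAT and eWAT fitted alone (fewer samples) 12 and 16, and array weights 79 and 1891. Chosen after seeing the data, a filter on these 6 libraries with iWAT and eWAT alone gave 14 and 31, and leaving out both iWAT 1 and eWAT 1 gave 268 and 2509. With the replicate number as a block the counts were 28 and 193 over 9 libraries and 25 and 127 for the depots alone. Over 9 libraries this block changed the calls of Lep, Pparg and Krt79 and of no other gene named by the rule, and for the depots alone it also ended those of Kcnk3, Hoxb6 and Hoxc5. Of the 45 called genes that the text could name, over 979 pairs of gene and alternative, 744 kept their call, 235 lost it and 0 reversed. Of 52 uncalled genes over 1136 pairs, 51 became called. Low read totals limit genes near 1 FPKM, where a listed 0 is no proof of absence.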

Other observations

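Signalling genes added a few calls toward eWAT. Tgfb1, the growth factor, was at 2.64, 1.38 and 1.01 FPKM in iWAT against 7.12, 9.39 and 5.24 in eWAT, a log2 difference of -1.64 (limma, SE 0.28, adjusted p = 0.0208), and was the 1 call among 29 tested genes of the BMP and TGF-beta pathway, where 1.5% of all genes were called higher in eWAT. Fzd4, a Wnt receptor, was at 5.96, 1.48 and 2.64 FPKM in iWAT against 14.1, 10.5 and 14.9 in eWAT, a log2 difference of -1.82 (limma, SE 0.35, adjusted p = 0.0322), and was the 1 call among 15 tested Wnt genes, beside the same 1.5%. The Tgfb1 call was lost without any 1 of iWAT 2, iWAT 3, eWAT 1 and eWAT 2 (limma adjusted p = 0.0638 to 0.0896), and the Fzd4 call without any 1 of the libraries except iWAT 1 (0.0603 to 0.134). The chemokine gene Ccl6 was listed at 0.905, 0 and 0.529 FPKM in iWAT against 3.44, 2.23 and 2.94 in eWAT, a log2 difference of -1.43 (limma adjusted p = 0.0252). It passed the expression filter through eWAT alone. Among 20 tested genes of chemokines, cytokines and receptors it was the 1 call, beside the same 1.5%. The call was lost without iWAT 2 (limma adjusted p = 0.0591), iWAT 3 (0.0755), eWAT 1 (0.0916), eWAT 3 (0.103), BAT 1 (0.0505) or BAT 2 (0.0519).

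Immediate early genes, which respond within minutes to handling and stress, had a median of 0.66 over 24 tested members, with none called by limma, and of 0.22 without eWAT 1. Nr4a1 was at 6.66, 26.2 and 14.2 FPKM in iWAT against 2.03, 8.26 and 8.40 in eWAT (limma adjusted p = 0.181). The metallothionein genes Mt1 and Mt2, which bind metals, stood out in iWAT 3, at 3345 and 2918 FPKM against 1060 and 393 in iWAT 1 and 547 and 212 in iWAT 2.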
